A study of Aspergillus nidulans with 38 samples.

Results

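The 9 genes described here encode the enzymes of the glyoxylate cycle and of gluconeogenesis in *Aspergillus nidulans*, the enzyme that activates acetate, and the transcription factors that regulate them. The rule names them by identifier and sets no threshold on a measured value, but they were chosen with earlier results of these data known. All 9 were found among the 9541 genes of the deposited tables, and all 9 passed the filter on low counts that left 8290 genes for testing. They are *acuD* (AN5634), *acuE* (AN6653), *acuF* (AN1918), *acuG* (AN5604), *facA* (AN5626), *facB* (AN0689), *acuK* (AN7468), *acuM* (AN6293) and *creA* (AN6195).

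*A. nidulans* can live on acetate, ethanol, fatty acids or amino acids when sugar is lacking. Isocitrate lyase (*acuD*) and malate synthase (*acuE*) form the glyoxylate cycle, a shortcut through the citric acid cycle that spares carbon from being lost as carbon dioxide, and acetyl-CoA synthetase (*facA*) feeds acetate into it. Gluconeogenesis then builds sugars from the resulting acids, beginning with phosphoenolpyruvate carboxykinase (*acuF*) and passing through fructose-1,6-bisphosphatase (*acuG*). In this fungus FacB activates genes of acetate use, AcuK and AcuM activate genes of gluconeogenesis, and CreA represses many genes of alternative carbon sources while glucose is present.

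The study asked how the transcriptome of growing mycelium changes after the cell wall is perturbed by micafungin, a drug of the echinocandin class that inhibits β-1,3-glucan synthase. The parental strain, given as FGSC A1405 in the growth protocol and as AN1405 in the strain label, was grown for about 20 h at 28 °C in 1.2 l of acidic YGV, a medium of glucose, yeast extract, trace elements and vitamins. The dose of micafungin was 20 ng/ml of culture per 1 g/kg of biomass. Mycelium was drawn from each flask at 0 min, every 5 min up to 30 min, every 10 min up to 60 min, and then at 75, 90 and 120 min. There were 3 flasks and 38 libraries, with 3 libraries at every time except 15 min, which had 2. The second 15 min library is labelled replicate 3 while its column carries the number of replicate 2, so its flask was left unsettled and only its level is given. No flask without micafungin was among these samples, so the drug and the time in culture cannot be told apart.

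Between 5814843 and 10846567 reads were counted per library, with a median of 7964987.5. The fewest reads on any of the 9 genes was 82, on *acuD* in flask 1 at 10 min, and the most was 3399, on *creA* in flask 2 at 120 min. Levels are given as normalized counts, the reads of a gene divided by a size factor for each library, and are not set against each other between genes because they were not divided by gene length. The sources used here do not say whether counting used strand, and a gene's count may then include reads of a neighbour that overlaps it on the opposite strand. In RNA from whole mycelium, fewer cells expressing a gene and less RNA per cell cannot be told apart.

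By 120 min both glyoxylate cycle enzymes and both gluconeogenic enzymes had risen, by 2.36-fold to 3.96-fold over 0 min, while *facA* and *facB* stood within 0.03 of their start on the log2 scale. Of the 9 genes, 4 passed an adjusted p of 0.05 and all 4 were higher, against a background of 4.41% of all genes tested that passed in either direction and 3.21% that were higher. The test was edgeR's quasi-likelihood test with the flask as a block and Benjamini-Hochberg adjustment over all 8290 genes. The median log2 fold change was 0.66 over the 9 genes and -0.01 over all genes tested. In 7 of the 9 genes every 120 min library lay above every 0 min library, as it did in 18.1% of all genes. The 4 calls needed flasks 1 and 3. Without flask 1, and likewise without flask 3, none of the 8290 genes passed (1584 and 1402 genes had an unadjusted p under 0.05), although the fold changes of the 4 enzymes stayed between 1.05 and 2.04 on the log2 scale.

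**Figure D1:**
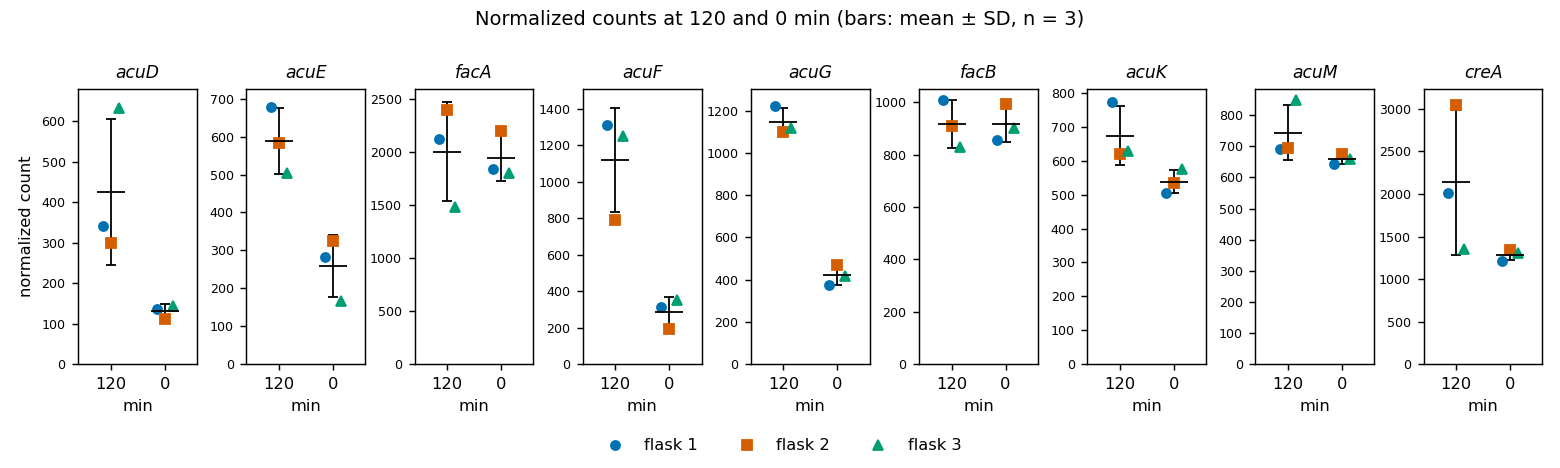
Normalized counts of the 9 genes (vertical axes, each from 0) at 120 min on the left and 0 min on the right of each panel. Symbols are the 3 flasks and bars the mean ± SD. The 120 min libraries of *acuD*, *acuE*, *acuF* and *acuG* all lie above their 0 min libraries, while those of *facA* and *facB* overlap.

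The isocitrate lyase gene *acuD* had 341, 300 and 633 normalized counts in flasks 1, 2 and 3 at 120 min, against 135, 111 and 144 at 0 min. The lowest level at 120 min was above the highest at 0 min, and flask 3 stood well above the other two. Its log2 fold change was 1.64 ± 0.23 (SE, n = 3 flasks, edgeR adjusted p = 0.0365). This SE comes from the test statistic, which borrows spread from the rest of the genes.

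The malate synthase gene *acuE* reached 679, 583 and 504 normalized counts at 120 min, against 282, 325 and 167 at 0 min. The groups did not overlap, and flask 3 was the lowest at both times. The log2 fold change was 1.24 ± 0.19 (SE, n = 3 flasks), with an edgeR adjusted p of 0.0447 that became 0.0638 without the flask as a block.

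For *acuF*, whose product makes phosphoenolpyruvate from oxaloacetate, levels were 1312, 791 and 1253 normalized counts at 120 min, against 315, 192 and 352 at 0 min. Flask 2 was the lowest at both times, and the change within each flask was nearly the same, at 2.06, 2.04 and 1.83 on the log2 scale. This was the largest fold change of the 9 genes, 1.99 ± 0.13 in the fit (SE, n = 3 flasks, edgeR adjusted p = 0.0174). The fructose-1,6-bisphosphatase gene *acuG* had 1221, 1096 and 1118 normalized counts at 120 min and 374, 470 and 417 at 0 min, a log2 fold change of 1.46 ± 0.15 (SE, n = 3 flasks, edgeR adjusted p = 0.0258). Its libraries at 120 min were the most alike of the 4 enzymes, with an SD of 66.8 around a mean of 1145 normalized counts.

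The acetyl-CoA synthetase gene *facA* ended near its start. It had 2119, 2394 and 1483 normalized counts at 120 min, against 1837, 2191 and 1799 at 0 min, so that flasks 1 and 2 ended above their start and flask 3 below it. The log2 fold change was 0.03 ± 0.15 (SE, n = 3 flasks, edgeR adjusted p = 0.915).

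None of the 4 regulators passed the test at 120 min. *facB* had 1010, 909 and 829 normalized counts at 120 min and 857, 992 and 903 at 0 min, a log2 fold change of 0.01 ± 0.14 (SE, n = 3 flasks, edgeR adjusted p = 0.983). *acuK* had 775, 621 and 630 normalized counts at 120 min and 506, 535 and 575 at 0 min, and *acuM* had 690, 696 and 848 at 120 min and 643, 676 and 658 at 0 min. Neither gene overlapped between the times, but the differences were small, at 0.33 ± 0.15 on the log2 scale for *acuK* (SE, n = 3 flasks, edgeR adjusted p = 0.228) and 0.18 ± 0.14 for *acuM* (adjusted p = 0.438). The repressor gene *creA* had 2008, 3048 and 1352 normalized counts at 120 min, against 1215, 1344 and 1305 at 0 min. Flask 2 was far above the others and flask 3 was barely above its start, and the log2 fold change of 0.66 ± 0.24 did not pass (SE, n = 3 flasks, edgeR adjusted p = 0.174). When all libraries shared one edgeR fit, *creA* (0.70, adjusted p = 0.0122) and *acuK* (0.32, adjusted p = 0.028) passed as well. Of all 8290 genes the main test called 366, and this shared fit called 2394, of which 1391 were higher. That fit, here and below, treats libraries drawn in series from a flask as independent. Its p-values thus do not measure the spread between flasks alone.

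**Figure D2:**
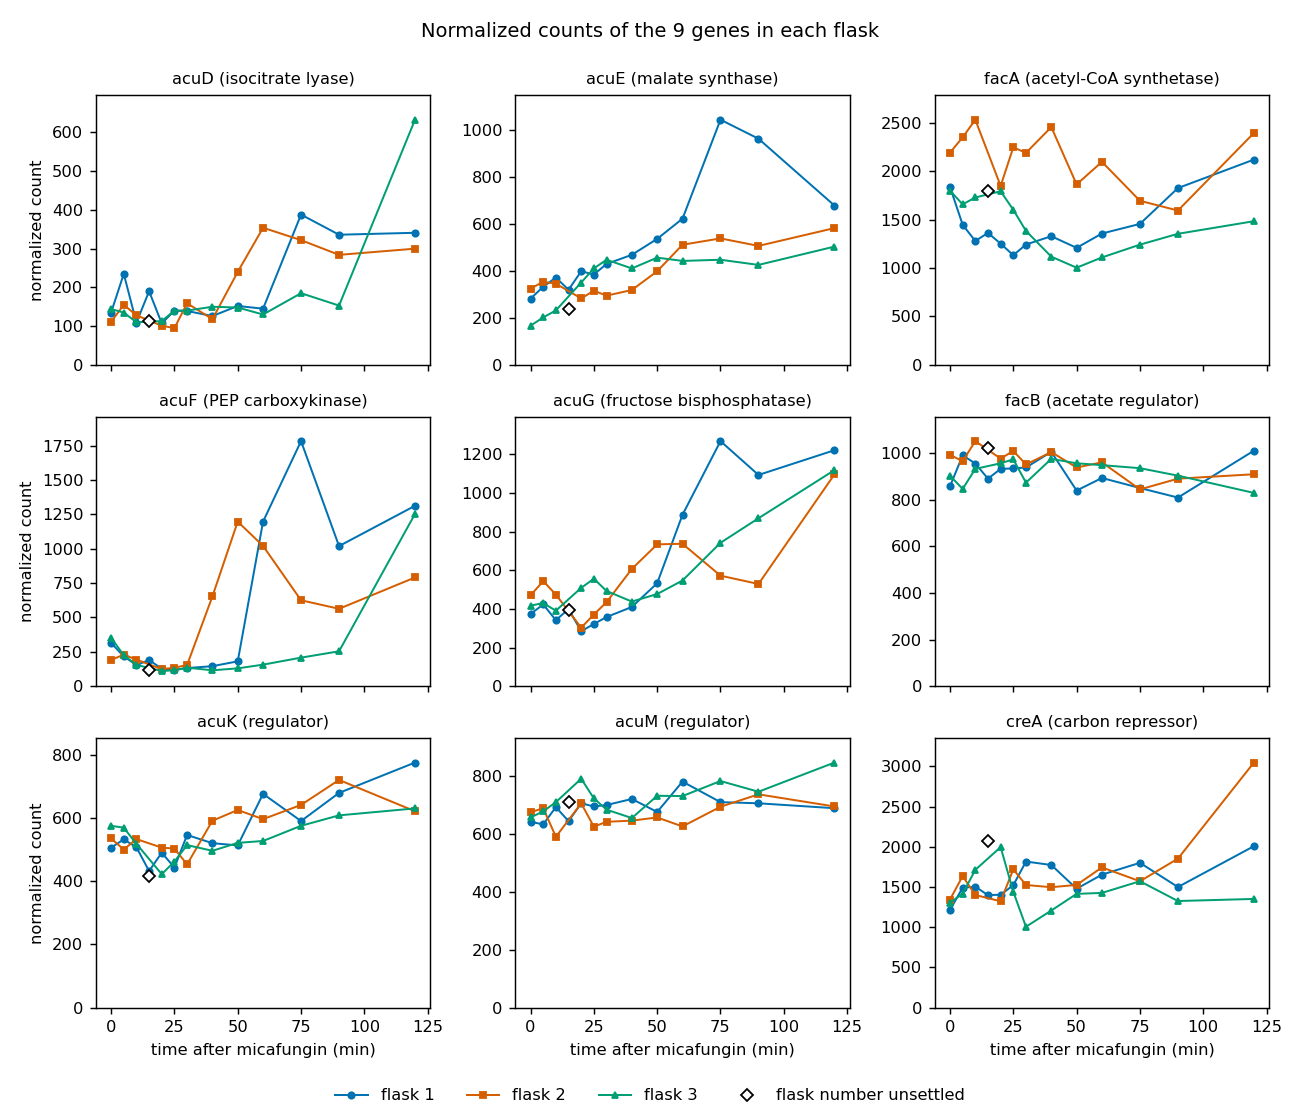
Normalized counts (vertical axes, each from 0) of the 9 genes over 120 min of micafungin (horizontal axes). Lines are the 3 flasks and the open diamond is the 15 min library of unsettled flask. *acuF* climbs at a different time in each flask, by 40 min in flask 2, by 60 min in flask 1 and by 120 min in flask 3, while *facB* and *acuM* stay nearly level.

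Over the whole course, 5 of the 9 genes varied with time, against a background of 21.9% of all genes tested (edgeR's quasi-likelihood F test over the time points in the 37 libraries of known flask, with the flask as a block). These were *acuG* (adjusted p = 0.000347), *acuD* (0.000535), *acuE* (0.000635), *acuK* (0.00175) and *acuF* (0.00292). The other 4, *facA* (0.41), *creA* (0.527), *acuM* (0.596) and *facB* (0.741), did not pass. Libraries of 1 flask were taken in series and are not independent, so these p-values do not measure the spread between flasks alone. Without flask 1 none of the 9 passed, with 439 of all genes still called.

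*acuF* moved down before it moved up. At 5, 10, 20, 25 and 30 min its log2 fold change, taken within each flask against that flask's own 0 min library, averaged -0.31, -0.73, -1.19, -1.17 and -0.98, with SDs of 0.49, 0.65, 0.53, 0.58 and 0.58 (n = 3). All 3 flasks were below their own 0 min level at 20, 25 and 30 min. The flasks started unlike each other, at 192 to 352 normalized counts, and were close together at 20 min, at 128, 124 and 111. The dip was accordingly deeper in flasks 1 and 3 (-1.29 and -1.66 at 20 min) than in flask 2 (-0.63).

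The comparison of 25 min with 0 min did not carry this dip past the threshold. *acuF* had 119, 135 and 116 normalized counts at 25 min, against 315, 192 and 352 at 0 min, a log2 fold change of -1.17 ± 0.28 (SE, n = 3 flasks) with an unadjusted p of 0.0103 and an adjusted p of 0.656 in edgeR. None of the 8290 genes passed at 25 min (0%), although 506 had an unadjusted p under 0.05. DESeq2 called 46 genes and the fit of all libraries 36, with none of the 9 among them. The other 8 genes lay between -0.28 for *facA* and 0.56 for *acuE* on the log2 scale, with adjusted p-values of 0.863 and above.

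From 25 to 120 min *acuF* rose by 3.13 ± 0.24 on the log2 scale (SE, n = 3 flasks, edgeR adjusted p = 0.00676), with 1312, 791 and 1253 normalized counts at 120 min against 119, 135 and 116 at 25 min. No library at 25 min came near any library at 120 min. *acuD* (1.69 ± 0.24, adjusted p = 0.0216) and *acuG* (1.48 ± 0.21, adjusted p = 0.0214) also rose. These 3 were the only ones of the 9 to pass, all higher, where 7.66% of all genes passed in either direction, 4.9% higher and 2.76% lower. *acuE* did not pass (0.65 ± 0.18, adjusted p = 0.102). In the fit of all libraries 4 of the 9 passed, with *acuK* added (0.53, adjusted p = 0.000896). That fit called 1738 of all 8290 genes, of which 1072 were higher. This comparison shares its 120 min libraries with that against 0 min, and without flask 1 it called no gene at all, with 933 under an unadjusted p of 0.05.

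**Figure D3:**
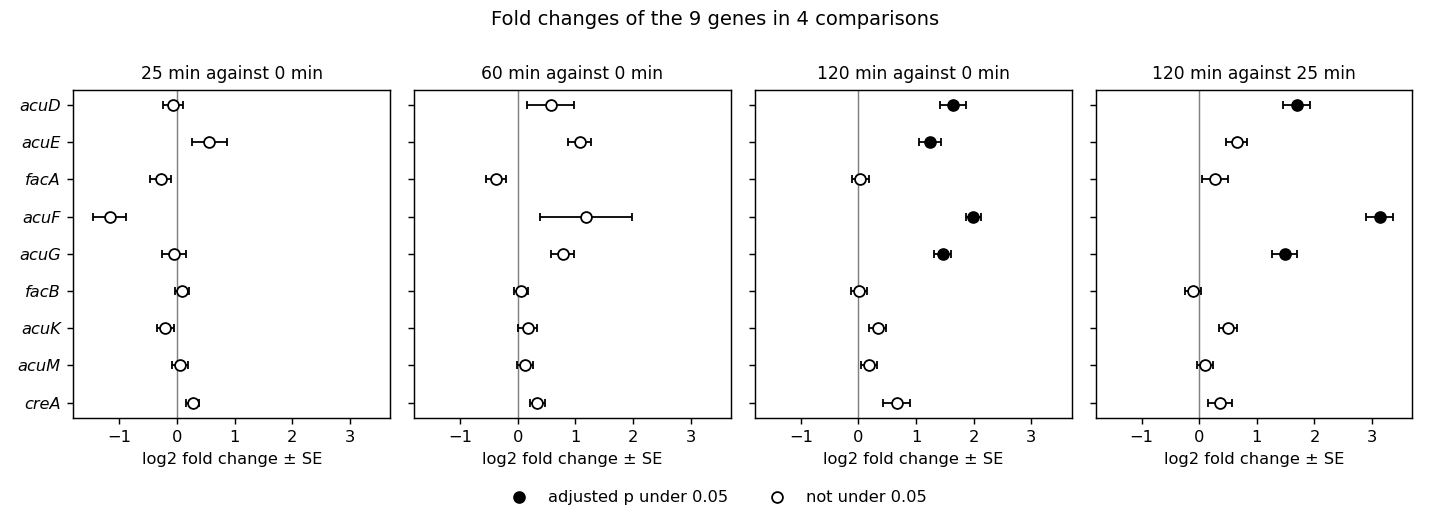
Log2 fold change ± SE from edgeR (horizontal axes, n = 3 flasks) of the 9 genes (vertical axis) in 4 comparisons. Filled points have an adjusted p under 0.05: none at 25 or 60 min, 4 enzymes at 120 min against 0 min, and 3 enzymes at 120 min against 25 min. The bar of *acuF* at 60 min is the widest, at ± 0.80.

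The time at which *acuF* climbed differed between flasks. In flask 2 it had 154 normalized counts at 30 min, 653 at 40 min and a highest level of 1197 at 50 min. In flask 1 it had 181 at 50 min, 1197 at 60 min and a highest level of 1782 at 75 min. In flask 3 it was still below its start at 90 min, with 254 normalized counts, and had its highest level of 1253 at 120 min. The order was thus flask 2, flask 1, flask 3, and the highest level within a flask was 15, 9.62 and 11.3 times the lowest in flasks 1, 2 and 3.

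The flasks accordingly lay far apart in the middle of the course. At 60 min *acuF* had 1197, 1020 and 157 normalized counts in flasks 1, 2 and 3, against 315, 192 and 352 at 0 min, so that 2 flasks were far above their start and the third was below it. The log2 fold change of 1.19 ± 0.80 (SE, n = 3 flasks) had an edgeR adjusted p of 0.6. The SD of its log2 fold change over flasks was 1.94 at 60 min and 0.13 at 120 min.

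Of the other 3 enzymes, *acuD* kept this order of flasks and *acuE* and *acuG* did not. *acuD* was first at least 2-fold above its start (1 on the log2 scale) at 50 min in flask 2, 75 min in flask 1 and 120 min in flask 3. *acuG* reached this mark at 60 min in flask 1, 90 min in flask 3 and 120 min in flask 2. *acuE* reached it already at 20 min in flask 3, at 60 min in flask 1 and not at all in flask 2. In flask 3, *acuE* was at 167 normalized counts at 0 min, the lowest of the 3 flasks, and at 448 by 30 min, after which it stayed between 411 and 504.

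In *acuE* and *acuG* the flasks were above their start together sooner than in *acuF*, where this held only at 120 min. *acuE* was above its own 0 min level in all 3 flasks from 50 min on, and its log2 fold change averaged 0.89 ± 0.58 at 50 min, 1.07 ± 0.38 by 60 min and 1.35 ± 0.58 by 75 min (SD, n = 3). *acuG* was above in all 3 flasks from 40 min on, at 0.19 ± 0.16 at 40 min, 0.76 ± 0.44 at 60 min and 1.45 ± 0.24 at 120 min. *acuD* was above in all 3 flasks from 75 min on, at 1.14 ± 0.68 at 75 min.

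At 60 min against 0 min none of the 8290 genes passed edgeR's test (0%), with 1082 at an unadjusted p under 0.05. *acuE* had the lowest adjusted p of the 9, 0.219, with 623, 512 and 443 normalized counts at 60 min against 282, 325 and 167 at 0 min and a log2 fold change of 1.08 ± 0.20 (SE, n = 3 flasks). Its groups did not overlap. DESeq2 called 335 genes and the fit of all libraries 750, and *acuE* was the only one of the 9 in each (log2 fold changes of 1.07 and 1.01, adjusted p = 0.0047 and 0.00905).

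Among the regulators and *facA*, the highest level within a flask was 1.25, 1.24 and 1.18 times the lowest for *facB* in flasks 1, 2 and 3, and 1.23, 1.25 and 1.29 times for *acuM*. It was 1.8, 1.59 and 1.49 times for *acuK*, 1.87, 1.59 and 1.79 times for *facA*, and 1.65, 2.3 and 1.99 times for *creA*. The range of *creA* in flask 2 was thus wider than that of the enzyme gene *acuE* there, at 2.06 times. *acuK* was below its own start in all 3 flasks at 20 and 25 min (mean -0.20 ± 0.11 at 25 min on the log2 scale) and above it in all 3 at 90 and 120 min (0.31 ± 0.20 and 0.32 ± 0.26, SD, n = 3). *creA* was above its start in all 3 flasks at 8 of the 11 times with 3 libraries of known flask, by means of 0.13 to 0.65 on the log2 scale over all 11. *facA* was below its start in all 3 flasks at 6 of the 11 times, lowest at 50 min, where it had 1208, 1863 and 1003 normalized counts against 1837, 2191 and 1799 at 0 min (mean log2 fold change -0.56 ± 0.31, SD, n = 3).

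Across the 37 libraries of known flask, the levels of the 4 enzyme genes that rose and of *acuK* were positively correlated on the log2 scale. Pearson's r was 0.814 between *acuF* and *acuK*, 0.813 between *acuF* and *acuG*, 0.787 between *acuF* and *acuD*, 0.751 between *acuD* and *acuG*, and 0.546 between *acuF* and *acuE*. The level of *facB*, whose product activates *facA*, *acuD* and *acuE*, varied little, its highest 1.18 to 1.25 times its lowest within a flask. Its r was -0.457 with *acuD*, -0.296 with *acuE* and 0.264 with *facA*. Libraries share their flask and their place in the course, so these values only describe the courses.

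The 5 genes whose log2 levels were most like *acuF* over these 37 libraries were AN7170 (r = 0.96), AN9470 (0.937), AN2310 (0.926), AN0939 (0.912) and AN0427 (0.911). AN9470 is annotated as uricase, an enzyme of purine breakdown, and the other 4 are uncharacterized in the annotation used. Because they were picked for this likeness, their levels are a description. AN7170 had 1966, 3257 and 447 normalized counts at 60 min in flasks 1, 2 and 3, against 579, 757 and 807 at 0 min. AN9470 had 6048, 6365 and 722 at 60 min, against 1173, 1211 and 496 at 0 min. In both genes flask 3 was the lowest at 60 min, as in *acuF*. In AN9470, however, flask 3 was already the lowest at 0 min. It lay above its start at 60 min (0.54 on the log2 scale), where *acuF* was below it (-1.16). At 120 min flask 3 held 4461 normalized counts of AN7170 and 8301 of AN9470.

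**Figure D4:**
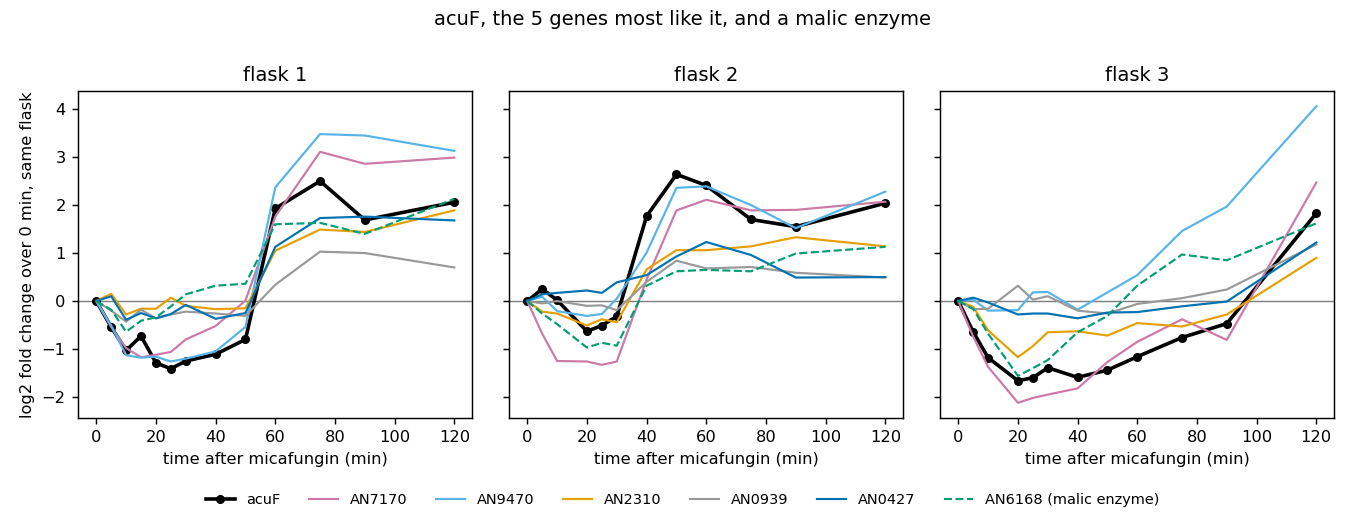
Log2 fold change within a flask, against its own 0 min library (vertical axis), plotted by time after micafungin in min (horizontal axis), with 1 panel per flask. *acuF* is the thick black line, the 5 genes chosen for their likeness to it are thin lines, and the malic enzyme AN6168 is dashed. *acuF* crosses 0 upward between 30 and 40 min in flask 2, between 50 and 60 min in flask 1 and between 90 and 120 min in flask 3.

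Of 22 further genes of central carbon use, 1 rose at 120 min and none fell, where 3.21% of all genes were higher and 1.21% lower. The median log2 fold change of these 22 was -0.04. DESeq2 called 3 of them, 2 higher and 1 lower, where it called 1186 of all 8290 genes, 782 higher and 404 lower. The fit of all libraries called 7, 4 higher and 3 lower, where it called 2394 of all 8290 genes, 1391 higher and 1003 lower. The list took in malic enzymes, an isocitrate dehydrogenase, pyruvate carboxylase and genes of citrate metabolism, fatty acid use and carbon repression, with 7 genes that carry no annotation in the sources used here. The gene that rose was AN6168, a malic enzyme, which turns malate into pyruvate. It had 6293, 5365 and 4919 normalized counts at 120 min, against 1441, 2443 and 1602 at 0 min, a log2 fold change of 1.64 ± 0.24 (SE, n = 3 flasks, edgeR adjusted p = 0.0385).

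Like *acuF*, AN6168 lay below its start at 20 and 25 min in all 3 flasks, with 1334, 1338 and 607 normalized counts at 25 min. It rose by 2.40 ± 0.25 on the log2 scale at 120 min against 25 min (SE, n = 3 flasks, edgeR adjusted p = 0.0109). Over the whole course, where 21.9% of all genes passed, 3 of the 22 did: AN6168 (adjusted p = 1.01e-07), the other malic enzyme AN6933 (0.00427) and pyruvate carboxylase AN4462 (0.0291), the last 2 named after their values were seen. AN6933 had 152, 77.1 and 167 normalized counts at 120 min and 62.1, 75.9 and 60.3 at 0 min, with flask 2 nearly level. AN4462 had 5891, 8317 and 3504 at 120 min and 6142, 5899 and 6310 at 0 min, with its flasks on both sides of the start. None of the 5 genes of citrate metabolism passed edgeR's test at 120 min against 0 min. Aconitase (*acoA*) had a log2 fold change of -0.87 (adjusted p = 0.164, and 0.0255 in the fit of all libraries), citrate synthase (*cit1*) -0.27 (adjusted p = 0.504), and the ATP citrate lyase genes *aclA* and AN2436 -0.16 and -0.07 (adjusted p = 0.674 and 0.862). Methylcitrate synthase (*mcsA*) lay on the other side, at 0.57 ± 0.13 (SE, n = 3 flasks, adjusted p = 0.0817, and 0.0397 with DESeq2), above its start in all 3 flasks (0.53, 0.51 and 0.64).

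Of 8 markers of conidiophores and conidia, 7 were in the tables and none of these was at 0 in all libraries of a time. At 120 min 2 of these 7 rose and none fell, where 3.21% of all genes were higher. Their summed level was 264 to 1679 normalized counts at 120 min, against 168 to 193 at 0 min. The 120 min libraries lay above all 0 min libraries, and flask 2 was the highest. The developmental regulator *brlA* (3.66, adjusted p = 0.0252) and *ivoB* (6.32, adjusted p = 0.0292), whose product makes conidiophore pigment, rose on the log2 scale by edgeR's test, and the other 5 did not pass, at -0.42 to 0.75 on the log2 scale. Both started from few reads, with 9, 32 and 1 for *brlA* and 3, 13 and 0 for *ivoB* in flasks 1, 2 and 3. At 120 min *ivoB* had 48, 1421 and 31 reads, so the high sum of flask 2 was mostly *ivoB*. At 60 min the summed marker level was 174, 514 and 190 normalized counts in flasks 1, 2 and 3, against 171, 193 and 168 at 0 min. *acuF* then had 1197, 1020 and 157 normalized counts. The part of the markers in the changes of the 9 genes was not tested.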

How the data were processed

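RNA was sequenced from mycelium at 13 times in 3 flasks. The authors' notes name HISAT2 for alignment, HTSeq for counting reads per gene and DESeq2 for normalization. They deposited 12 tables of raw counts of 9541 genes, each setting a later time against 0 min, and the 33 repeated 0 min columns were identical. The tables also hold normalized values (71 per-sample columns) and the authors' fold changes and p-values, none of which was used. Strand setting and annotation release: not given in the sources used here. Of the gene identifiers, 8939 matched RefSeq assembly ASM1142v1, which was used for names only.

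Genes with a read in at least 2 libraries at each of the 13 times were kept (8290). Each pair of times was compared with only its own libraries in the fit, in R 4.3.3 with edgeR 4.0.16 (TMM, quasi-likelihood test, flask as a block, Benjamini-Hochberg adjustment, threshold 0.05). The F test over all times stands in for the study's spline fits with permutation and left out the 15 min library of unsettled flask. Other times are values with no test. Normalized counts are the deposited counts over size factors of DESeq2 1.42.0 across all 38 libraries. Fold changes within a flask used no pseudocount, and correlations used log2 of the normalized count plus 1. The script was tested on simulated data.

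The flask number pairs the libraries because each flask was sampled in series, following the study's fold changes within a flask. Across genes, deviations from the mean at 0 min and at 120 min correlated at -0.144, 0.153 and 0.26 in flasks 1, 2 and 3. Alternatives were no block, other size factors, no filter, DESeq2, all libraries in a single fit and leaving out each flask.

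All 9 genes are named in every comparison. Of the further pathway genes, those passing at 120 min against 0 min were to be named, and 1 was dropped because RefSeq gives it another name. AN6933, AN4462 and the genes of citrate metabolism are named outside this rule. The 5 genes of highest r to *acuF* are named. The 9 genes, the lists, the 25 min comparison and the choice of *acuF* for likeness were chosen with earlier results of these data known.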

Additional observations from a re-analysis of the deposited data

Results flagged for a closer look

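The values of *acuF* turned from below the start to above it, but only the upper side passed a test against 0 min. At 25 min all 3 flasks lay below their 0 min library (-1.41, -0.51 and -1.60 on the log2 scale) and at 120 min all 3 lay above it (2.06, 2.04 and 1.83). Set against each other, 120 min was higher than 25 min by 3.13 on the log2 scale (edgeR adjusted p = 0.00676). That test does not bear on whether 25 min was below 0 min, a comparison that did not pass (-1.17, edgeR adjusted p = 0.656).

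The values of *acuK* also changed side, at a smaller size, with -0.19, -0.09 and -0.32 at 25 min and 0.61, 0.21 and 0.13 at 120 min in flasks 1, 2 and 3. Neither time passed against 0 min, at -0.20 ± 0.14 for 25 min and 0.33 ± 0.15 for 120 min (SE, n = 3 flasks, edgeR adjusted p = 0.938 and 0.228). The difference of 120 min against 25 min, 0.50 on the log2 scale, did not pass (edgeR adjusted p = 0.136), while the fit of all libraries gave 0.53 (adjusted p = 0.000896).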

How the results depend on the processing

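Of 234 values of single genes under alternatives other than leaving out a flask, 225 kept their direction and their side of the threshold, and of 135 with a flask left out, 110 did. Without a replicate block, 3 of the 9 genes passed at 120 min against 0 min in place of 4 (*acuE* was lost). Of the 9, 0 passed at 25 and 60 min, 3 at 120 against 25 min and 5 over the course. This setting called 247 of all genes (366 in the main test) at 120 min against 0 min and 0 at 25 and 60 min. At 120 against 25 min it called 477 (635), and over the course 737 (1815). DESeq2 called 1186 genes (366 in the main test) at 120 min against 0 min, 335 (0) at 60 min, 46 (0) at 25 min and 1028 (635) at 120 against 25 min. The fit of all libraries called 2394, 750, 36 and 1738. Of the 9 genes this edgeR fit called 6 at 120 min against 0 min, 4 at 120 against 25 min and 1 at 60 min. DESeq2 also called 1 at 60 min, where the main edgeR test called 0. Leaving out each flask gave 0 to 581 genes and 0 to 4 of the 9 at 120 min against 0 min, 0 to 115 genes at 60 min, 0 to 1094 genes and 0 to 4 of the 9 at 120 against 25 min, and 439 to 1259 genes and 0 to 5 of the 9 over the course. The direction turned only in changes that did not pass, listed next with main values of 0.57 for *acuD* at 60 min, 0.27 for *facA* at 120 against 25 min and within 0.05 of 0 for the rest. *facB* at 120 min against 0 min was -0.02 with other size factors and with DESeq2, -0.01 with all libraries and -0.13 to 0.05 with a flask left out, and *facA* was -0.09 to 0.16 with a flask left out (-0.05 without flask 2). With a flask left out, *acuD* at 60 min was -0.03 to 0.93, *acuG* at 25 min -0.28 to 0.08 (0.03 without flask 1), and *facA* at 120 against 25 min -0.01 to 0.47. Counting the unsettled 15 min library as flask 3, or as flask 2 (chosen after seeing the data), left 5 of the 9 called over the course. The calls at 120 min against 0 min were lost without flask 1 or flask 3, and all those of the 9 at 120 against 25 min and over the course without flask 1 (without flask 3 the course lost *acuK*, adjusted p = 0.0528). The cause was not tested. A fit without a flask rests on 2 pairs.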
